A study of Mus musculus with 10 samples.

Results

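Ucp1, Ucp2 and Ucp3, the genes of the mouse uncoupling proteins, were examined in interscapular brown adipose tissue (iBAT) of mice lacking cardiolipin synthase in adipocytes. They were chosen by their symbols and are 3 of the 15075 genes listed. The 3 genes did not move together in iBAT of the knockout mice. Ucp1 fell to 38.1% of its Control mean and Ucp3 to 28.8%, while Ucp2 rose 7.0-fold. For each of them all 5 knockout libraries lay outside the range of the 5 Control libraries, as they did for 50.9% of all genes tested.

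Uncoupling proteins are carriers of the mitochondrial inner membrane. UCP1, the defining protein of brown adipocytes, lets protons re-enter the matrix without passing through ATP synthase, so that respiration yields heat. It is activated by fatty acids released when norepinephrine stimulates lipolysis, and it is inhibited by purine nucleotides. UCP2 is made in many tissues, immune cells among them, and has been described as an exchanger of metabolites such as aspartate and malate for phosphate. UCP3 is found mainly in skeletal muscle and brown fat and is known for its link to fatty acid oxidation. Cardiolipin, the phospholipid missing in this model, is a component of the same membrane.

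Both groups were C57BL/6 mice of 20 weeks, housed at room temperature. Control mice (labelled wild-type) carried Crls1 with a floxed exon 4 and no Cre. AdCKO mice (labelled CRLS1 knockout) carried the same floxed allele and Adipoq-Cre, a recombinase driven by the adiponectin promoter and so active in adipocytes of every depot, not in the other cells of the tissue. Polyadenylated RNA of whole iBAT from 5 mice of each group was sequenced, 1 library per mouse. In RNA of a whole tissue, fewer cells of a type and less RNA per cell cannot be told apart.

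Values are normalized reads per kb of counted exon, a scale on which levels of different genes can be compared. Crls1 itself, the targeted gene, was at 1060 ± 191 (SD, n = 5) in Control and 217 ± 26.4 (n = 5) in AdCKO, a log2 fold change of -2.27 (limma adjusted p = 3.53e-08), and the groups did not overlap. Reads were counted over 1907 exon bases of Crls1, and the share of exon 4 in them was not examined. Summed adipocyte markers lay between 200187 and 233239 in Control and between 145844 and 165684 in AdCKO. Most of these sums came from 1 gene, Fabp4, named here after its value was seen, with means of 147241 and 108235. Adipoq, the adiponectin gene, averaged 5964 in Control and 4185 in AdCKO. The libraries AdCKO 1, 2 and 4 stood apart from the rest: their summed skeletal muscle markers were 9050, 33578 and 13328, against 411 in AdCKO 3, 443 in AdCKO 5 and 536 to 593 in Control. The members and the gene lists were therefore also computed without these 3 libraries.

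The 3 genes are related in sequence, and Ucp3 and Ucp2 are also neighbours in the genome. Ucp1 (NM_009463) occupies bases 85814247 to 85822355 of chromosome 8 (build mm9, plus strand) in 6 exons. Ucp3 (NM_009464, chromosome 7, 107621500 to 107634941, 7 exons) and Ucp2 (NM_011671, chromosome 7, 107641867 to 107648138, 8 exons) follow each other on the plus strand with 6925 bases between them. Their coding sequences encode 307, 309 and 308 residues for Ucp1, Ucp2 and Ucp3. In global alignment 73.8% of coding bases were identical between Ucp2 and Ucp3, 62.6% between Ucp1 and Ucp3 and 60.9% between Ucp1 and Ucp2. The longest run of coding bases that Ucp2 and Ucp3 share is 24 bases long. It is shown as the longest exact coding match of the pair that moved in opposite directions. How reads with mismatches or from untranslated exons were assigned was not tested. The run lies in exon 6 of Ucp2 (chr7:107646880-107646903) and exon 5 of Ucp3 (chr7:107630403-107630426), plus strand.
Ucp2 and Ucp3 shared run: aatgccattgtcaactgtgctgag
For Ucp1 against either of the others the longest shared run was 17 bases. No other annotated gene overlaps any of the 3. The annotation extends Ucp2 by 2391 bases past the end of the counted transcript, so reads of that stretch were not in its value.

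The 250 bases before each start are shown because Ucp2 and Ucp3, neighbours on 1 strand, changed in opposite directions, while Ucp1 and Ucp3, on different chromosomes, both fell. The sequences come from RefSeq (GRCm38.p6) and are identical in mm9 at chr8:85813997-85814246 (Ucp1), chr7:107641617-107641866 (Ucp2) and chr7:107621250-107621499 (Ucp3), plus strand, ending 1 base before the start. In the gene models exon 1 of Ucp2 begins at base 107641846, inside its window. Sequence outside the windows was not searched. Capitals mark matches to any of 6 short motifs searched on both strands. These were the TATA-like element TATANA, the cyclic AMP response element core TGACG, the CCAAT box, the GC box GGGCGG, the nuclear receptor half-site AGGTCA and the C/EBP-ATF composite element TGATGNAA.
Ucp1 promoter: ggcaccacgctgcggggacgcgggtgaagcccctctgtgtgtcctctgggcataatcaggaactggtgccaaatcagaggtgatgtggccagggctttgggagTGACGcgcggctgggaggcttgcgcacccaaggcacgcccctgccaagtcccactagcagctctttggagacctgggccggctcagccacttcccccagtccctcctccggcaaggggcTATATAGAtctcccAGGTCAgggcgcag
Ucp2 promoter: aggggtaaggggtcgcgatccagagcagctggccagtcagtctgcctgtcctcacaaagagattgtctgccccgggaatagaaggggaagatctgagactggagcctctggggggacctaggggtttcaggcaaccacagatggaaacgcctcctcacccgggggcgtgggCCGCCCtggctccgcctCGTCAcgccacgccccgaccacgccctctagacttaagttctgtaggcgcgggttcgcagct
Ucp3 promoter: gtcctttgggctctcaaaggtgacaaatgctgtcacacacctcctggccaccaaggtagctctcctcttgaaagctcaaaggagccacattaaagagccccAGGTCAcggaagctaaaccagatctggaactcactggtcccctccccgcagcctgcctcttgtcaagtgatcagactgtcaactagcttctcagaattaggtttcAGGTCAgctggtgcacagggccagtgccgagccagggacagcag
The Ucp1 window holds a TATA-like element whose first base is at -28, counted back from the start, with a second, overlapping match at -26. It also holds TGACG at -147 and AGGTCA at -14. The Ucp2 window has TGACG at -62 and GGGCGG at -79, both on the minus strand. The Ucp3 window has AGGTCA at -149 and at -44 and none of the other motifs. Neither CCAAT nor TGATGNAA occurs in any of the 3. Among 32851 promoter windows of the same table and length, 22.6% hold TATANA, 17.8% TGACG, 33.8% CCAAT, 32.7% GGGCGG, 14% AGGTCA and 3.45% TGATGNAA, so single matches are common. GC content was 64.8% for Ucp1, 63.6% for Ucp2 and 54.8% for Ucp3 (median of all windows 52.4%), with 12, 16 and 3 CpG dinucleotides (median 6).

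Groups were compared on log2(value + 1) with limma over 11244 genes whose mean reached 10 in at least 1 group, and the threshold of the adjusted p was 0.01. All 3 uncoupling protein genes were called. In the same comparison 53.6% of all genes tested were called, 25.6% higher and 28.0% lower in AdCKO, so a call by itself sets no gene apart. The groups did not overlap for 50.9% of the tested genes, 24.5% higher and 26.4% lower. The sizes of the changes were less common: Ucp2 was among 95 genes with a log2 fold change at or above its own, Ucp3 among 103 genes at or below its own, and Ucp1 among 247.

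Ucp1 carries the heat-producing proton leak of brown fat. It was at 40656, 32405, 24203, 46570 and 40726 normalized reads per kb in Control 1 to 5 and at 12861, 12683, 18077, 7895 and 18828 in AdCKO 1 to 5. Every AdCKO library lay below every Control library. Control 3 was the lowest of its group and came nearest to the highest AdCKO library, AdCKO 5. The means were 36912 ± 8713 (SD, n = 5) and 14069 ± 4478 (n = 5), which is 2.62-fold lower in AdCKO. The log2 fold change was -1.42 (SE 0.25, 95% interval -1.96 to -0.89, limma adjusted p = 0.000274), and permuting libraries between the groups gave an exact two-sided p = 0.00794, the smallest that 5 libraries against 5 allow. Ucp1 nevertheless stayed among the most abundant mRNAs, between rank 4 and 10 of all listed genes in Control and between rank 4 and 20 in AdCKO.

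How far Ucp1 fell depended on the scaling. The sum of normalized reads over genes was lower in AdCKO than in Control, and once every library was set to 1 total, the Ucp1 log2 fold change was -0.94 (limma adjusted p = 0.0036) while the median gene moved to 0.46. Quantile normalization, which gives each value the level belonging to its rank, left -0.41 (adjusted p = 0.205), so there the call was lost. As a share of all normalized reads, Ucp1 took 0.522% to 0.988% in Control and 0.229% to 0.548% in AdCKO. These ranges overlap, and the exact permutation test gave p = 0.0238. AdCKO 1, 2 and 4, rich in muscle markers, were also the 3 libraries with the lowest Ucp1. Without them Ucp1 was at -0.96 (adjusted p = 0.00688).

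Ucp2, the member made in many cell types, was the least abundant of the family in Control and moved the other way. It was at 245, 279, 363, 233 and 273 in Control 1 to 5 and at 1982, 1738, 2262, 1775 and 1994 in AdCKO 1 to 5. The lowest AdCKO library lay far above the highest Control library, Control 3. Means were 279 ± 51.1 (SD, n = 5) and 1950 ± 209 (n = 5). The log2 fold change was 2.81 (SE 0.12, 95% interval 2.56 to 3.07, limma adjusted p = 5.03e-09; exact permutation p = 0.00794, again the smallest possible). Among all genes tested it ranked 38 by p, and 36 among those higher in AdCKO. Its place among all listed genes went from rank 1406 to 2129 in Control up to rank 147 to 211 in AdCKO.

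Ucp3, the member linked to fatty acid oxidation, fell as Ucp1 did, with less spread between libraries. It was at 1194, 1040, 998, 1246 and 1083 in Control 1 to 5 and at 330, 340, 230, 382 and 319 in AdCKO 1 to 5. All AdCKO libraries lay below all Control libraries. AdCKO 3, the highest for Ucp2, was the lowest for Ucp3. Means were 1112 ± 105 (SD, n = 5) and 320 ± 55.6 (n = 5), 3.47-fold lower in AdCKO. The log2 fold change was -1.81 (SE 0.12, 95% interval -2.07 to -1.54, limma adjusted p = 1.37e-07; exact permutation p = 0.00794). Its rank among listed genes went from 394 to 502 in Control to 1192 to 1976 in AdCKO.

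**Figure D1:**
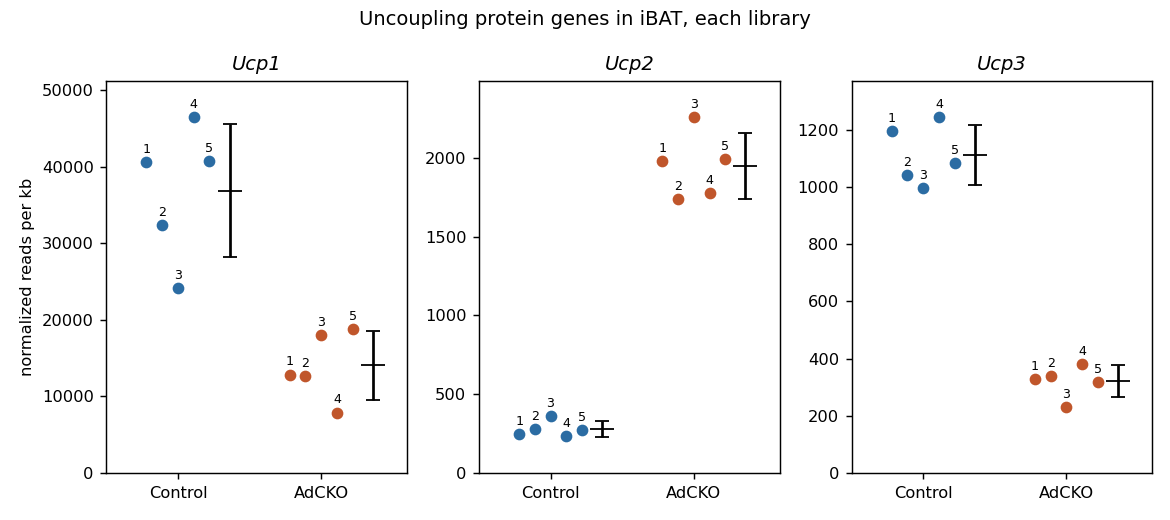
Levels of Ucp1, Ucp2 and Ucp3 in each iBAT library, in normalized reads per kb on linear axes that start at 0 and differ between panels. Points are libraries numbered 1 to 5 within Control and AdCKO, and the black bar is the mean ± SD of 5. For each gene the 5 AdCKO points lie outside the range of the 5 Control points, below it for Ucp1 and Ucp3 and above it for Ucp2.

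Under the other settings the directions of Ucp2 and Ucp3 held and both remained called. Across 10 alternatives Ucp2 ran from 2.77 to 3.29 and Ucp3 from -2.03 to -1.33. Leaving out the muscle-rich AdCKO 1, 2 and 4 gave 2.94 for Ucp2 and -2.03 for Ucp3. All 3 members moved with the scaling. With equal library totals Ucp2 was at 3.29 and Ucp3 at -1.33, and after quantile normalization they were at 3.15 and -1.58. The plot of changes by processing shows these shifts beside those of Ucp1, the 1 member whose call was lost.

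**Figure D2:**
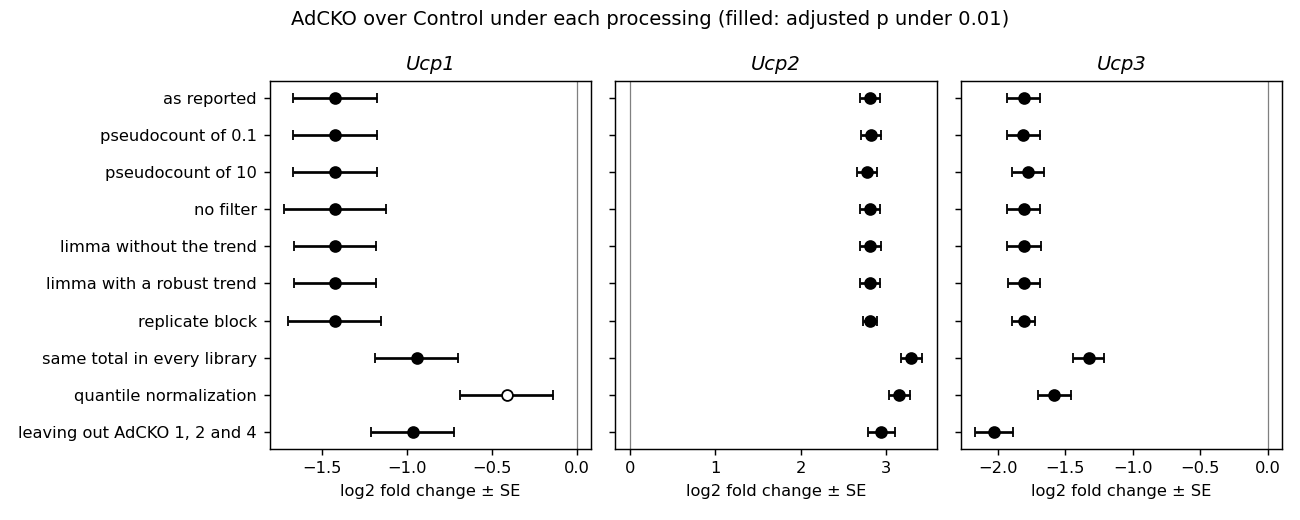
Log2 fold change of AdCKO over Control with its SE for Ucp1, Ucp2 and Ucp3 as reported and under 9 other settings. Filled points passed an adjusted p under 0.01, and the open point, Ucp1 after quantile normalization at -0.41, did not.

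Summed over the 3 genes, the uncoupling protein level was 38303 ± 8759 (SD, n = 5) in Control and 16339 ± 4591 (n = 5) in AdCKO. Ucp1 made up 94.7% to 96.9% of that sum in Control and 78.5% to 89.1% in AdCKO. Ucp2 made up 0.485% to 1.42% in Control and 9.43% to 17.7% in AdCKO. Ucp3 took 2.57% to 3.90% and 1.12% to 3.80%. Thus Ucp1 was the main uncoupling protein mRNA in every library of both groups. The order below it turned over: Ucp3 exceeded Ucp2 in 5 of 5 Control libraries, and Ucp2 exceeded Ucp3 in 5 of 5 AdCKO libraries. Neighbours in the order did not overlap within a group.

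Ratios between members within a library do not depend on how that library was scaled in total. 3 ratios were compared by exact two-sided permutation tests, with p-values adjusted over the 3. Ucp1 was 66.6 to 200 times the level of Ucp2 in Control (median 149) and 4.45 to 9.44 times in AdCKO (median 7.30). The log2 ratio of Ucp2 to Ucp1 was thus higher by 4.24 in AdCKO (SE 0.33, 95% interval 3.41 to 4.99, exact permutation p = 0.00794, adjusted 0.0119), an 18.9-fold change. The ratio of Ucp3 to Ucp2 went from 2.74 to 5.35 in Control to 0.102 to 0.215 in AdCKO, a difference of -4.63 on the log2 scale (SE 0.25, interval -5.19 to -4.08, exact permutation p = 0.00794, adjusted 0.0119), a 24.8-fold change. Both are larger than the spread between libraries.

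The ratio of Ucp3 to Ucp1, the pair that fell, was 0.0266 to 0.0412 in Control and 0.0127 to 0.0484 in AdCKO. The groups overlapped, with AdCKO 4 the highest and AdCKO 3 the lowest of all 10 libraries. The log2 difference was -0.39 (SE 0.35, exact permutation p = 0.302), with a 95% interval from -1.20 to 0.40, which leaves room for a fall of Ucp3 beyond that of Ucp1 as well as for none. The result depended on AdCKO 4. Without AdCKO 4 the difference was -0.65 (adjusted exact permutation p = 0.0238), and without the muscle-rich AdCKO 1, 2 and 4 it was -1.07 (0.0476, the smallest p that 5 against 2 allow). After quantile normalization it was -1.17 (0.0317).

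**Figure D3:**
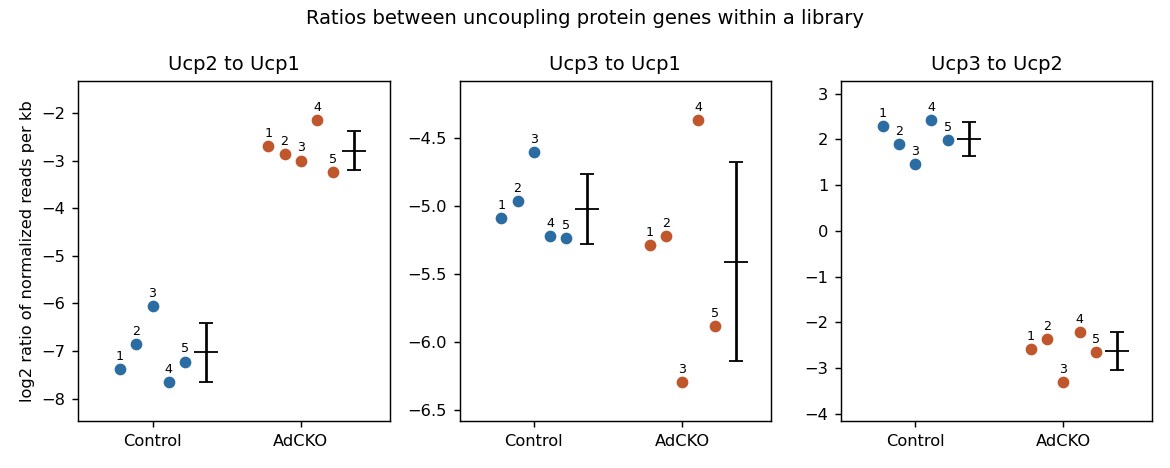
Log2 ratio of the levels of each pair of uncoupling protein genes within a library, for Control and AdCKO 1 to 5, with the mean ± SD of 5 as a black bar. Ucp2 to Ucp1 and Ucp3 to Ucp2 separate the groups, while for Ucp3 to Ucp1 the AdCKO libraries spread over and beyond the Control range.

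Ucp3 and Ucp2 were then set beside the genes next to them. C2cd3, a centriole gene, ends 2831 bases before Ucp3 and changed by -0.45 (limma adjusted p = 0.000198). With equal library totals C2cd3 was at 0.01, where the median of all genes was at 0.46. Dnajb13, on the minus strand 3390 bases past the counted end of Ucp2, changed by 0.70 (adjusted p = 0.000581) at a low level, 8.34 ± 1.48 (SD, n = 5) in Control and 14.1 ± 1.92 in AdCKO. The annotation extends Ucp2 over 2391 of these bases, so the annotated genes lie closer together than that distance. Ucp1 sits between Tbc1d9, which changed by 0.60 (adjusted p = 0.000249; 11.1 ± 1.31 to 17.2 ± 1.41), and Elmod2, which changed by 0.48 (adjusted p = 0.00232; 77.0 ± 11.9 to 108 ± 11.5). These lie 17407 bases before and 14175 bases after Ucp1. On the deposited scale each uncoupling protein gene thus had a larger log2 fold change, in size, than the nearest genes outside the family. That difference was not tested. Both neighbours of Ucp1 were higher in AdCKO where Ucp1 was lower. After quantile normalization Tbc1d9 was at 0.22 (limma adjusted p = 0.0982) and Elmod2 at 0.47 (adjusted p = 0.00323). Ucp1 was then at -0.41 (adjusted p = 0.205), smaller in size than Elmod2, and the calls of Ucp1 and Tbc1d9 were lost.

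**Figure D4:**
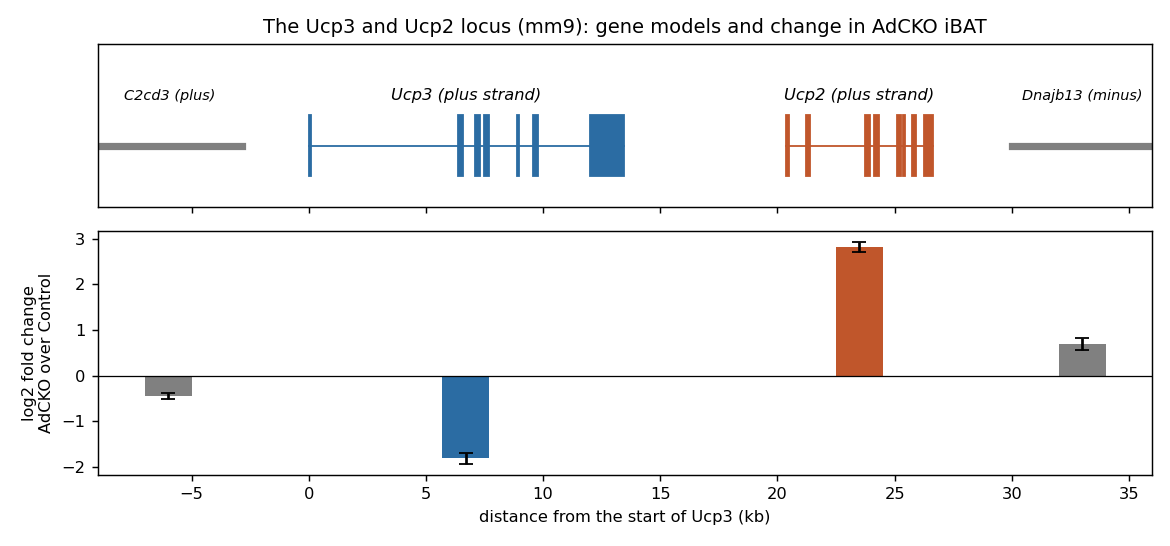
The Ucp3 and Ucp2 locus. Above, gene models with exons as boxes by distance from the start of Ucp3 in kb (Ucp2 drawn to the end of its counted transcript, neighbours in grey and cut at the edges), and below, the log2 fold change of AdCKO over Control with its SE as a bar under each gene. Ucp3 at -1.81 and Ucp2 at 2.81 stand 6925 bases apart, next to C2cd3 at -0.45 and Dnajb13 at 0.70.

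Markers of some other cell types also differed between the groups. Counts in the lists that follow stand against 25.6% of all genes tested called higher and 28.0% called lower. With equal library totals the median of all genes was at 0.46. Of 14 macrophage markers tested, 13 were higher in AdCKO and none lower (median log2 fold change 2.78, against -0.01 over all genes tested), and 12 of 14 were higher without AdCKO 1, 2 and 4. Among them were Cd68 at 4.09 (limma adjusted p = 5.21e-08), a lysosomal glycoprotein of macrophages, and Itgam, an integrin of myeloid cells, at 2.99 (adjusted p = 9.43e-08). Summed over the list, the markers were at 581 to 1657 in Control and 7381 to 9947 in AdCKO. The largest part of these sums came from 1 gene, Lyz2, named here after its value was seen, with means of 469 and 5196. No marker of the list averaged under 1 in either group. Ucp2 is known to be made in macrophages, and the part of these cells in its rise was not tested. Control 3 had both the highest macrophage sum (1657) and the highest Ucp2 (363) of its group, and the lowest Ucp1 and Ucp3. Within AdCKO the highest macrophage sums were those of AdCKO 2 and 4 (9677 and 9947), which had the lowest Ucp2 (1738 and 1775). AdCKO 2 and 4 also had the highest skeletal muscle sums (33578 and 13328), so the order of these libraries cannot be read for macrophages alone. It was not tested.

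The other lists gave smaller or more uneven shifts. Of 9 fibroblast and progenitor markers tested, 8 were higher (median 2.04), with Col1a1, a fibrillar collagen, at 3.36 (adjusted p = 4.38e-10), and the sums were 1299 to 1727 in Control and 4847 to 7509 in AdCKO. Of 9 endothelial markers 4 were higher (8 with equal library totals), with a median of 0.17 that was 0.36 without AdCKO 1, 2 and 4, and sums from 1753 to 2156 and from 1843 to 2565. Of 6 lymphocyte markers 1, Cd4, was higher at 1.48 (median of the list 0.69), with sums from 46.1 to 78.0 and from 57.7 to 309, the highest in AdCKO 1. That call was lost after quantile normalization, and without AdCKO 1, 2 and 4 only 1 lymphocyte marker passed the minimum and it was not called. Of 10 adipocyte markers 6 were lower and 2 higher (median -0.57). The latter were Lpl, lipoprotein lipase, at 0.65 and Retn, resistin, at 1.42. Adipoq, the gene whose promoter drives the Cre, changed by -0.52 (adjusted p = 0.00383), and after quantile normalization by 0.30. The list then had 1 lower and 2 higher (median 0.09), and with equal library totals 2 lower and 2 higher. The part of any of these cell types in the changes of the uncoupling protein genes was not tested.

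Skeletal muscle is the other tissue where Ucp3 is abundant. Of 16 muscle markers 2 were called, Acta1, the actin of skeletal muscle, and Mb, myoglobin, both higher in AdCKO (median of the list 3.63). These values rest on AdCKO 1, 2 and 4. Without them 9 markers passed the minimum, 1 higher and 1 lower, the median was -0.26, and Acta1 was at 0.81. The list was uneven: Myh7 and Ttn averaged under 1 in Control and no marker did in AdCKO. Ucp3 was at 330, 340 and 382 in the muscle-rich AdCKO 1, 2 and 4 and at 230 and 319 in AdCKO 3 and 5. Its fall was thus as large without the muscle-rich libraries. In these libraries Ucp3 stayed below every Control library.

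**Figure D5:**
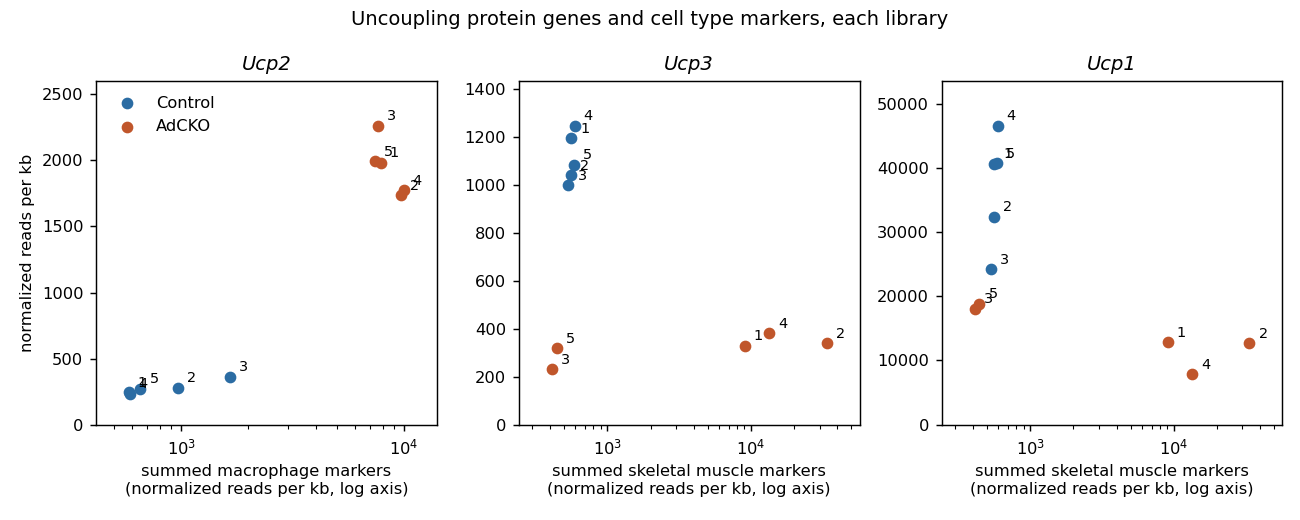
Levels of Ucp2 against summed macrophage markers, and of Ucp3 and Ucp1 against summed skeletal muscle markers, in normalized reads per kb for each library (numbers are replicates; the marker axes are logarithmic). Macrophage sums and Ucp2 are both higher in all AdCKO libraries, whereas the muscle sums are high in AdCKO 1, 2 and 4 only and Ucp3 is low in all 5.

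Genes that act on Ucp1 transcription were mixed in direction. Of 22 activators tested, 10 were lower, 2 higher and 10 not called (median -0.53). The lowest p-values among those that fell were for Thrb, a thyroid hormone receptor, at -1.25 (limma adjusted p = 2.17e-06), Prdm16, a determinant of brown adipocyte identity, at -1.29 (adjusted p = 2.61e-06), Cebpa at -1.11 and Thra at -0.67. Ppargc1a, the coactivator PGC-1α, went the other way, from 101 ± 20.6 to 530 ± 275 (SD over 5 libraries), which is 2.24 on the log2 scale (adjusted p = 3.7e-05). Zfp516, a zinc finger protein that binds the Ucp1 promoter, was higher by 0.74. None of the 5 repressors, among them Nrip1 at 0.38 (adjusted p = 0.0319) and Rb1 at -0.14 (adjusted p = 0.0655), was called (median -0.14). Once all libraries had equal totals, 6 activators were higher and 3 lower, and 4 repressors were higher, with the median of all genes at 0.46. Without AdCKO 1, 2 and 4, 6 activators were lower and 3 higher.

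The route from norepinephrine to lipolysis, which supplies the fatty acids that activate UCP1, had 14 of 15 genes lower and none higher (median -0.86). Prkaca, a catalytic subunit of protein kinase A, changed by -1.15 (adjusted p = 5.03e-07), Pnpla2, the adipose triglyceride lipase, by -1.23 (adjusted p = 2.01e-06), Lipe, the hormone-sensitive lipase, by -1.20 and Mgll, the monoglyceride lipase, by -0.86. Adrb3, the beta adrenergic receptor most typical of adipocytes and named here after its value was seen, went from 809 ± 178 to 373 ± 60.9, a change of -1.10 (adjusted p = 7.89e-05). The gene not called was Adcy3, an adenylyl cyclase, at -0.78 (adjusted p = 0.0116). Counts shrank to 8 of 15 with equal library totals, 7 of 15 after quantile normalization and 10 of 15 without AdCKO 1, 2 and 4, and none was called higher in any of these, although Plin1, which coats lipid droplets, turned from -0.62 to 0.21 after quantile normalization.

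Other genes typical of brown adipocytes fell alongside Ucp1, though not all. Of 14 tested, 8 were lower, 2 higher and 4 not called (median -1.39), where 28.0% of all genes tested were lower and 25.6% higher. Slc27a2, a fatty acid transporter and acyl-CoA synthetase, changed by -2.81 (adjusted p = 3.02e-06), Mpzl2 by -2.11, Pank1, a pantothenate kinase, by -2.09 and Otop1, a proton channel, by -1.78. All 4 lie below the -1.42 of Ucp1, and the differences from Ucp1 were not tested. The 2 that were higher were Lhx8, a transcription factor, at 0.75 and Epsti1 at 1.90. The 4 not called, named here after their values were seen, were Dio2 at 0.90 (limma adjusted p = 0.0145), Elovl3 at -0.06, Kcnk3 at -0.11 and Zic1 at 0.09. The number of lower calls was also 8 with equal library totals (4 higher), after quantile normalization and without AdCKO 1, 2 and 4.

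Ucp3 is known to rise with fatty acid supply, so genes that respond to fatty acids were set beside it. Of 12 tested, 5 were lower, 2 higher and 5 not called (median -0.13). The beta-oxidation enzymes Hadhb (-1.59, adjusted p = 3.38e-07), Acadm (-1.35) and Hadha (-1.12) fell, as did Vldlr, a lipoprotein receptor (-0.83). Cpt1a, the liver form of the enzyme that passes fatty acids to mitochondria, rose by 1.59 (adjusted p = 3.88e-07), and Acot2, a mitochondrial acyl-CoA thioesterase, by 1.25. With equal library totals 4 were higher and 5 lower, with the list median at 0.34 and that of all genes at 0.46.

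Routes of heat production that do not use UCP1 were also mixed. Of 12 genes tested 3 were higher, 2 lower and 7 not called (median 0.92). Of all genes tested, 25.6% were called higher and 28.0% lower. The 3 higher genes belong to creatine cycling, but other listed genes of that cycle were not called. Those were Gamt at 0.44 (limma adjusted p = 0.0408), Ckmt2 at 2.77 (adjusted p = 0.0291) and Alpl at 0.02 (adjusted p = 0.833), named here after their values were seen. Ckb, a creatine kinase, went from 166 ± 42.2 to 564 ± 140 (1.76, adjusted p = 5.32e-06), Gatm, which makes the creatine precursor, changed by 1.36 and Slc6a8, the creatine transporter, by 1.11. Gpd2, the mitochondrial glycerol phosphate dehydrogenase, changed by -1.87 and Pm20d1, which makes N-acyl amino acids, by -2.02. Atp2a1 and Ryr1, calcium cycling genes of muscle named here after their values were seen, were at 962 ± 1250 and 28.4 ± 35.9 (SD, n = 5) in AdCKO, with an SD above the mean, and were not called. With equal library totals 6 of the 12 were higher and 2 lower. Without AdCKO 1, 2 and 4, 3 of 9 tested were higher and 2 lower, and the median was 0.31.

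Relatives of the uncoupling proteins among mitochondrial carriers were set beside them. Of 7 listed, Slc25a14 and Slc25a27, the brain uncoupling protein homologs, were below the minimum (6.23 to 9.11 on average in either group). Slc25a30, another homolog, was at 24.8 ± 2.83 and 28.5 ± 4.73 and was not called (0.19, adjusted p = 0.2). The adenine nucleotide carriers, which can also pass protons, were abundant. Slc25a4 was at 3206 ± 172 in Control and 2444 ± 654 in AdCKO (-0.43, adjusted p = 0.0208, not called) and Slc25a5 at 2630 ± 131 and 2120 ± 172 (-0.31, adjusted p = 0.00345). With equal totals they were at 0.06 and 0.17, still under the median of all genes at 0.46. After quantile normalization both were at 0.20, where that median was -0.08. Slc25a11, the oxoglutarate carrier, fell by 0.82 on the log2 scale (adjusted p = 7.59e-07) and Slc25a10, the dicarboxylate carrier, rose by 1.35 (adjusted p = 0.000153). Of the 5 tested, 1 was higher and 2 lower (median -0.31), against 2 higher and 1 lower with equal library totals and 1 of each after quantile normalization. In Control the level per kb of Slc25a4 and of Slc25a5 was above that of Ucp3 and far below that of Ucp1, and in AdCKO each was of the same order as Ucp2.

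Genes with the pattern most like each member were found by the root mean square difference of log2 values from their Control means over the 10 libraries. For Ucp1 these were Ackr3 (0.20), St3gal5 (0.21), Letmd1 (0.22), Slc4a4 (0.23) and Pim1 (0.23), where the median tested gene was at 1.08. For Ucp2 they were Plcl2 (0.18), Ms4a7 (0.19), Sirpa (0.21), Ero1l (0.21) and Prr32 (0.21), with a median of 2.01. For Ucp3 they were Car11 (0.13), C1rl (0.15), Adcy10 (0.16), Prelp (0.17) and Maob (0.18), with a median of 1.29. These values describe likeness over 5 Control and 5 AdCKO libraries and are dominated by the difference between the groups. The genes most like Ucp2 rose by 2.74 to 2.98 on the log2 scale, at AdCKO levels from 55.8 (Plcl2) to 462 (Sirpa), all below the 1950 of Ucp2. Those most like Ucp3 changed by -1.90 to -1.65 and those most like Ucp1 by -1.50 to -1.24.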

How the data were processed

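Polyadenylated RNA of iBAT from 5 Control and 5 AdCKO mice was sequenced. Reads were aligned by the authors with STAR (build mm9) and assigned to exons with iRNA-seq, and DESeq2 provided the normalization, after which values were expressed per kb of counted exon. The values the authors deposited are thus a signal in normalized reads per kb, with 1 RefSeq transcript per gene, and not counts. Tool versions are not given in the sources used here. Low values did not fall on whole reads. Many step sizes were tried per library, and at the best of them 22.3% to 23.2% of values lay within 0.1 of a whole number of steps. The share by chance is 20% for 1 step, and taking the best of many raises it. DESeq2 and edgeR were therefore not run here, depth is unknown and no counting error is given. Summed over genes, normalized reads came to 7615400 to 8171140 in Control and 5419800 to 5843020 in AdCKO. The columns of fold changes and adjusted p-values that the authors deposited, and their lists of called genes, were not used.

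Here a pseudocount of 1 was added, values were put on the log2 scale and genes with a mean of at least 10 in a group were tested with limma 3.58.1 in R 4.3.3 (eBayes with an intensity trend, two-sided, Benjamini-Hochberg over all genes tested). Such fold changes understate the change of low genes. Single values and log2 ratios were compared with exact two-sided permutation tests, whose intervals are the shifts not rejected. The code was tested on simulated data. Members and gene lists were chosen with earlier results of these data known. Named are the members, Crls1, all listed carriers, up to 4 genes per list and direction with the smallest p, the 5 genes most like each member and the nearest genes on each side, apart from those said to be chosen later. Alternatives were other pseudocounts (0.1 and 10), no filter, 2 other scalings, other limma trends, a replicate block, a threshold of 0.05 and each library left out. Coding sequences and positions come from GENCODE on the mm9 genome, and promoters from RefSeq. Plots used matplotlib 3.10.9 and Python 3.11.15.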

Additional observations from a re-analysis of the deposited data

How the results depend on the processing

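Ucp2 and Ucp3 remained called under all alternatives, and Ucp1 under all but quantile normalization (-0.41, adjusted p = 0.205). With single libraries left out, Ucp1 ran from -1.56 to -1.23, Ucp2 from 2.75 to 2.91 and Ucp3 from -1.88 to -1.69. The log2 ratios ran from 4.08 to 4.48 for Ucp2 to Ucp1, from -4.77 to -4.46 for Ucp3 to Ucp2 and from -0.65 to -0.17 for Ucp3 to Ucp1. The last passed the threshold of 0.05 without AdCKO 4 (-0.65, adjusted p = 0.0238), after quantile normalization (-1.17, 0.0317) and, chosen after seeing the data, without AdCKO 1, 2 and 4 (-1.07, 0.0476), and the cause was not tested. Of all genes, 2643 to 2887 were higher and 2880 to 3066 lower with single libraries left out (2879 and 3152 with all). With equal library totals 6811 were higher and 1098 lower, by construction, since the AdCKO totals were lower. Leaving out AdCKO 1, 2 and 4 gave 2083 higher and 2191 lower.

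Replicate numbers are shared by both groups, but samples of the same number did not deviate together: the correlations of their deviations from the group means were -0.07, 0.09, -0.17, -0.27 and 0.10 for numbers 1 to 5. With the replicate block in limma Ucp1 was at -1.42 (adjusted p = 0.00241), Ucp2 at 2.81 (8.02e-07) and Ucp3 at -1.81 (4.92e-06), with 2592 genes higher and 2838 lower. For the ratios the block is a sign-flip test whose smallest p is 0.0625, so that Ucp2 to Ucp1 (4.24) and Ucp3 to Ucp2 (-4.63), at an adjusted p of 0.0938, could not pass.

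Genes that changed sign were C2cd3 (0.015), Slc25a4 (0.056) and Slc25a5 (0.17) with equal totals, and Plin1 (0.21), Slc25a4 (0.20), Slc25a5 (0.20), Adipoq (0.30) and Slc25a30 (-0.065) after quantile normalization. The median of all genes was at 0.46 with equal totals and at -0.08 after quantile normalization. Depth could not be assessed, and precision rests on the spread between 5 mice of a group.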
